A study of Mus musculus with 6 samples.

Results

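The genes of glutamate and GABA receptor subunits were examined in the polysomal mRNAs of hippocampal astrocytes. Members were matched by symbol, and the set was chosen with earlier results of these data known. The symbols covered the ionotropic AMPA (Gria), kainate (Grik), NMDA (Grin) and delta (Grid) subunits. They also covered the metabotropic glutamate receptors (Grm), the GABA-A subunits (Gabr) and the GABA-B subunits (Gabbr). The members were 47 of the 22086 genes in the count tables (0.213%). Of the 47, 37 passed the filter on low counts, which left 13545 genes to test. TRAP immunoprecipitates ribosomes with an eGFP-tagged L10a protein, expressed here under the astrocyte promoter Aldh1l1, and was applied to whole hippocampi of mice aged 6 weeks. The groups were Cx43FL (Aldh1l1:L10a-eGFP, Cx43 fl/fl, labelled as littermates) and Cx43KO (Aldh1l1:L10a-eGFP, Cx43 fl/fl, with Cre under the human Gfap promoter), with 3 libraries each. Both groups thus carried the floxed Cx43 alleles and the tagged ribosomal transgene, and the labels give no treatment. The number of animals per library is not given in the sources used here, so that p-values measure the spread between libraries.

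Ionotropic receptors are channels opened by the transmitter itself: AMPA, kainate and NMDA receptors carry cations on binding glutamate, and GABA-A receptors carry chloride. Metabotropic glutamate receptors and GABA-B receptors act through G proteins. In the hippocampus most of these subunits are best known from neurons, where they carry fast excitation and inhibition, while astrocytes are known for Grm3, for the GABA-B receptor, which works as an obligate pair of Gabbr1 and Gabbr2, and for the GABA-A subunit Gabrg1. Deletion of Cx43 (gene Gja1), the main gap junction protein of astrocytes, was compared with its presence to learn which ribosome-bound mRNAs differ.

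The counts on genes were 14.8 to 15.4 M in Cx43FL and 16.1, 24.0 and 34.7 M in Cx43KO replicates 1 to 3. CPM below are counts per M counts on tested genes after TMM scaling (edgeR's factors for library composition), and 3 counts corresponded to 0.0926 to 0.199 CPM, a limit of counting alone, as the reads were amplified. Gja1 was not lower in the libraries labelled Cx43KO (log2 fold change 0.078, standard error, SE, 0.28, adjusted p = 0.949 in edgeR's quasi-likelihood test), and counts over its whole transcript do not show whether the deleted part is covered. Cx43KO is used below as the label of those libraries. Cx43KO replicate 1 stood apart, at 123.4 on the first principal component (41.0% of the variance) against -50.7 to -0.4 for the other libraries, and log2 fold changes are therefore also given without it. Its summed neuron markers (22 genes, among them Snap25, Syt1 and Camk2a) were 8763 CPM, against 2926 to 3609 CPM in Cx43FL and 3835 and 5313 CPM in Cx43KO replicates 2 and 3. No neuron marker was at 0 in a whole group. Its summed astrocyte markers (15 genes, among them Aqp4, Slc1a3 and Aldh1l1) were 15260 CPM, against 29760 to 33600 CPM in Cx43FL and 29050 and 42060 CPM in the other Cx43KO libraries. The serial numbers given to the libraries form a separate run for each genotype, and what these numbers stand for is not given in the sources used here. The paper states that libraries were pooled in sets of 3 over 2 flow cell lanes. Whether lane followed genotype is not given either.

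Among the 47 receptor genes, 36 were counted in all 6 libraries. Gabra6, Gabrr3 and Grm6 had no count in any library and were not detectable at this depth. A further 7 genes were counted but not tested, Grik1, Gabre, Gabrp, Gabrq, Gabrr1, Gabrr2 and Grm4. Grik1, a kainate subunit, had 136 counts in Cx43KO replicate 1 and 0 to 26 in every other library, and Grm4, a group III metabotropic receptor, had 102 counts in Cx43FL replicate 1 and 1 to 23 in the others. The other 5 of these genes had totals of 3 to 42 counts over the 6 libraries. The summed members took 1763 to 1887 CPM in Cx43FL, 5053 CPM in Cx43KO replicate 1, and 1909 and 2112 CPM in replicates 2 and 3.

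Levels between genes were compared per length, as CPM divided by the length in kb of the transcript that represents the gene. Gabbr1 had by far the largest level in Cx43FL, 100.2 ± 2.03 CPM per kb (SD, n = 3 libraries), and each Cx43FL library lay above all Cx43FL libraries of the other members. Grm3, which couples to the inhibition of adenylyl cyclase, followed with 43.0 ± 6.35 CPM per kb. Gabra5, a GABA-A alpha subunit typical of the hippocampus, had 24.8 ± 10.6 CPM per kb, and the ranges of Grm3 and Gabra5 overlapped. Further down came Gria1 with 18.2, Gria2 with 14.6, Gabrg1 with 14.1, Gabra4 with 13.0, Gabra2 with 12.3, Grik5 with 7.71 and Grin2c with 7.50 CPM per kb. Neighbours among the genes named here overlapped between libraries from Grm3 down. The same reads can be counted on several transcripts of a gene, and the length that applies is then uncertain. With the length of the shortest transcript that held at least 95% of the counts, Gria2 had 37.6 CPM per kb, the only member whose level changed by more than 1.5 times. With all transcripts of a gene added up, which counts many reads several times, Gria1 had 54.7 CPM per kb and lay above Grm3 at 43.0.

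**Figure D1:**
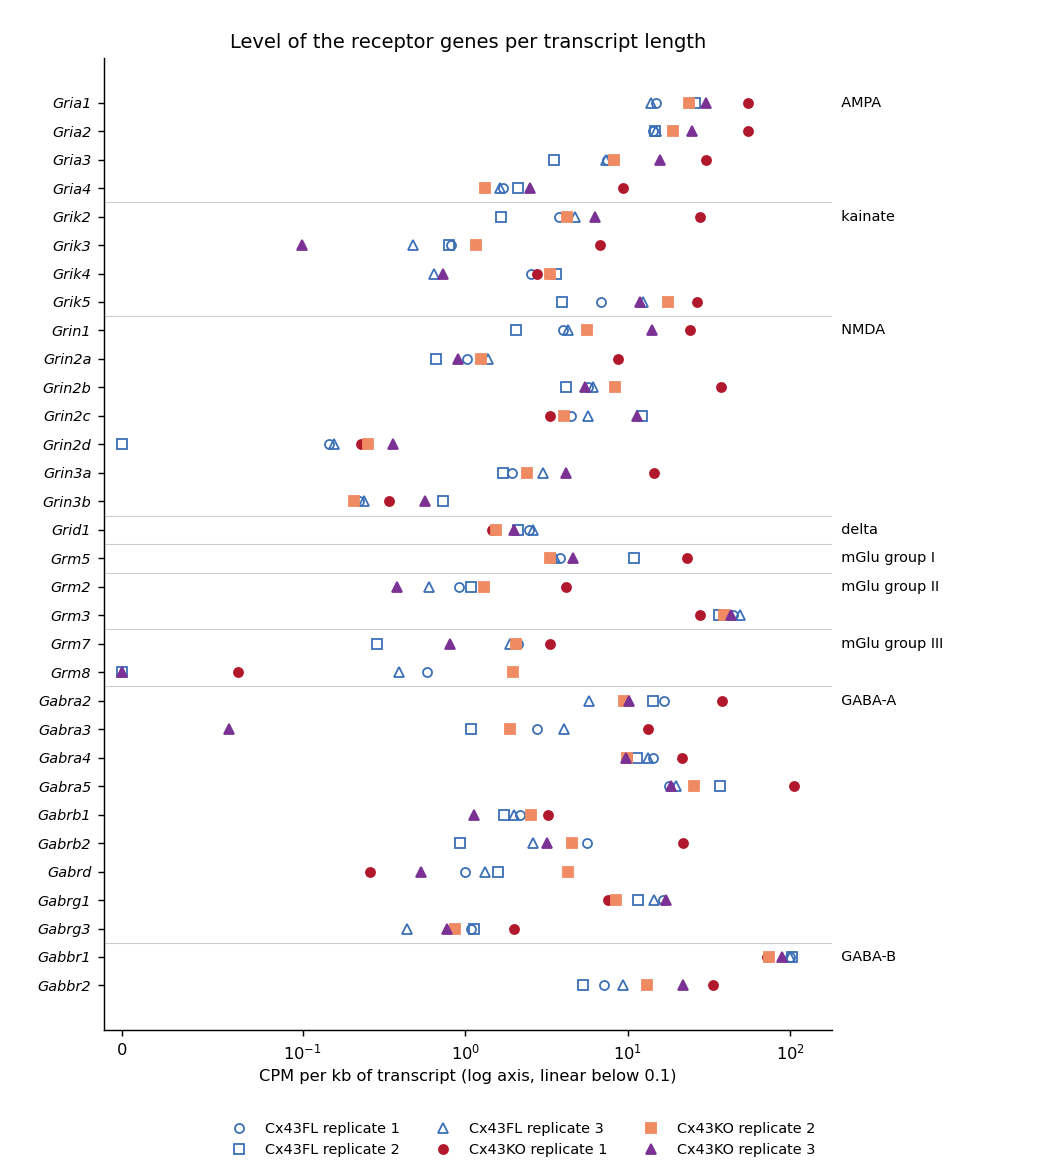
CPM per kb of transcript (log axis, linear below 0.1) of 32 tested receptor genes, 1 point per library, open for Cx43FL and filled for Cx43KO. Gabbr1 has the largest Cx43FL level, 100.2 CPM per kb, and the filled circle of Cx43KO replicate 1 lies to the right of the open points for 23 genes.

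No receptor gene passed an adjusted p below 0.05 with a mean normalized count above 50 in edgeR's quasi-likelihood test, in either direction, against 0.00738% of all tested genes called higher and 0% called lower. At an unadjusted p below 0.05 and the same minimum count, 10 of 37 were higher in Cx43KO (27%, against 5.63% of all tested genes) and 0 of 37 were lower (against 2.64%). Among them were Gria1, Gria2, Gria3, Grik2, Grik5, Grin1, Grin2b, Grin3a and Gabbr2. DESeq2 with its prior called Gabbr2 and Grin1 higher at an adjusted p below 0.05 and no member lower, against 0.824% and 0.124% of its tested genes, and without the prior the same 2 genes and no lower one, against 1.01% and 0.188%. On the log2 scale the difference was above 0 for 30 of 37 members, against 54.4% of all tested genes, with a median of 0.96 over the members and 0.071 over all tested genes.

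That median rested on Cx43KO replicate 1. Without it, the median of the members was -0.00079 and that of all tested genes 0.00067, 18 of 38 members had a log2 fold change above 0 (50.1% of all), and 4 were higher at an unadjusted p below 0.05 (5% of all, and 0 were lower against 3.06%), namely Gria2, Gria3, Grin1 and Gabbr2. Against the mean of Cx43FL, the log2 difference of the median member was 1.75 in Cx43KO replicate 1, 0.32 in replicate 2 and 0.015 in replicate 3. In replicate 1, 27 of 37 members lay above every Cx43FL library (37.9% of all tested genes) and 7 below (36.6% of all). Among the lower members were Gabbr1, Gabrd, Gabrg1, Grid1, Grin2c and Grm3. In Cx43KO replicate 2, 13 members lay above and 10 below, and in replicate 3, 11 above and 8 below, against 28.7%, 27.5%, 30.7% and 29.1% of all tested genes. In the same libraries 19 of 22 neuron markers lay above every Cx43FL library in replicate 1, and 9 of 22 in replicate 2 and in replicate 3. The summed oligodendrocyte markers were 610.1 to 1045 CPM in Cx43FL and 2794, 1023 and 630.8 CPM in Cx43KO, and the summed microglia markers 38.4 to 68.4 CPM and 182.5, 113 and 259 CPM. What part mRNA from these cells or from neurons had in the receptor values was not tested, and in bulk material fewer cells of a type and less RNA per cell cannot be told apart.

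**Figure D2:**
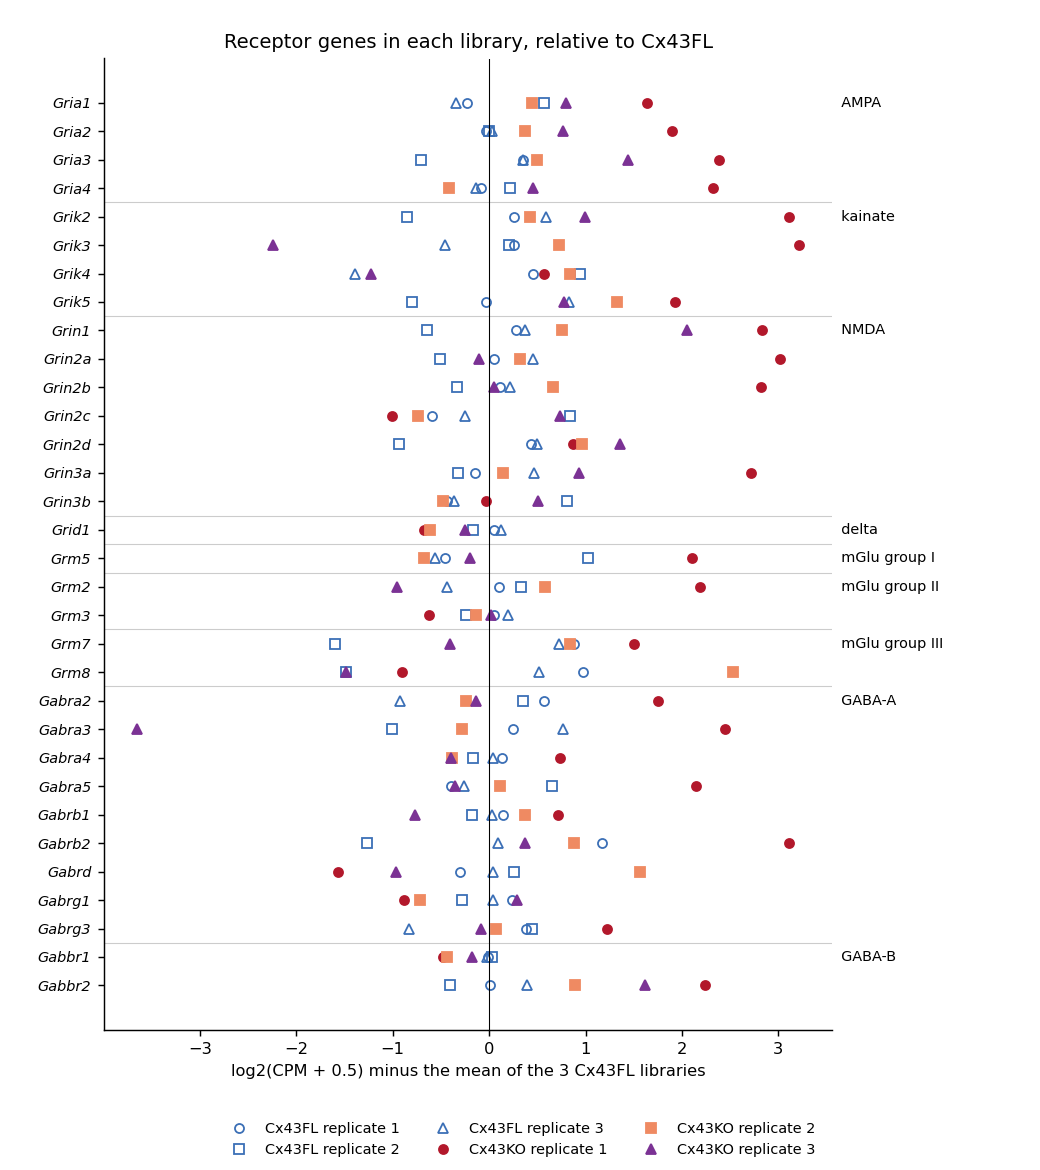
Log2(CPM + 0.5) of 32 tested receptor genes minus the mean of the 3 Cx43FL libraries, 1 point per library, grouped by receptor class. Cx43KO replicate 1 (filled circles) lies to the right of every Cx43FL library for 23 of these genes and to the left for 6, while replicates 2 and 3 are mixed around 0.

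**Figure D3:**
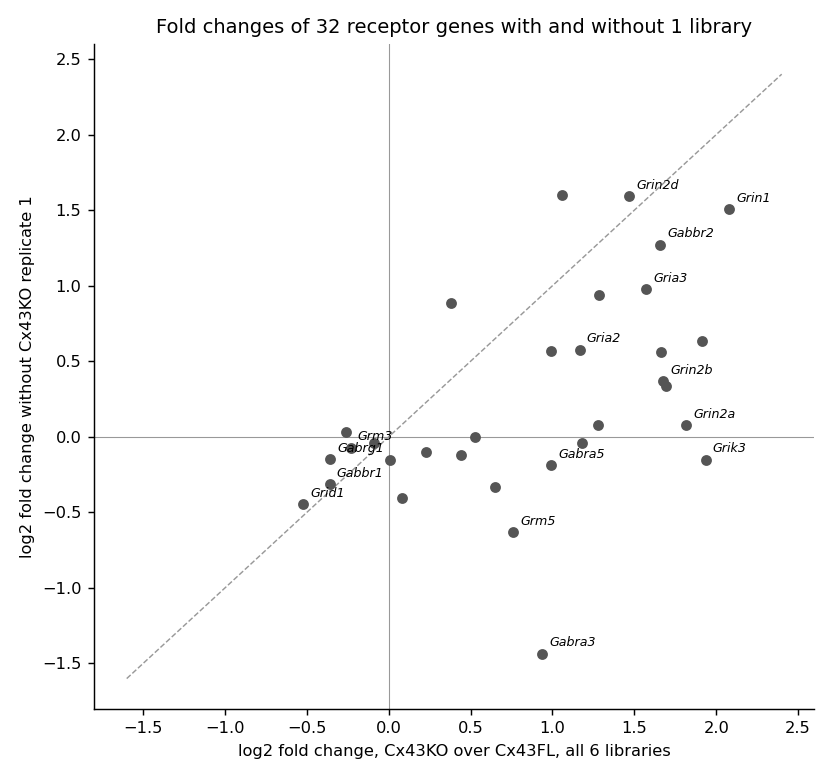
Log2 fold change of Cx43KO over Cx43FL with all 6 libraries (horizontal) and without Cx43KO replicate 1 (vertical), 1 point for each of 32 tested receptor genes, with the dashed line marking equal values. Most points lie below the line, and Grin1, Gabbr2, Gria3 and Gria2 keep values of 1.51, 1.27, 0.98 and 0.58 without that library.

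AMPA receptors are tetramers of Gria1 to Gria4, and the edited Gria2 subunit makes them impermeable to calcium. All 4 genes had a positive log2 fold change, from 0.99 to 1.57, and from 0.077 to 0.98 without Cx43KO replicate 1. Gria2 stood at 148, 151 and 155 CPM in the Cx43FL libraries and at 566, 196 and 257 CPM in the Cx43KO libraries, each given here and below in the order of replicates 1 to 3. Every Cx43KO library was thus above the narrow Cx43FL range. Cx43KO over Cx43FL, the log2 difference was 1.17 (SE 0.38, adjusted p = 0.540 in edgeR's test), and 0.58 without Cx43KO replicate 1. The promoter of Gria2 is shown because it was the only one of the 32 members with a RefSeq promoter window to hold the core of RE1, the motif bound by the repressor REST, which silences neuronal genes outside neurons. The RE1 core was searched on both strands in windows from 250 bases before to 50 after the RefSeq start (GRCm38.p6), and 0.0518% of the 32817 windows held it. The bases before the start are given, on the strand of the gene (chr3:80802836-80803085, minus strand), with the match, which is the reverse complement of the motif and begins 170 bases before the start, in capitals.
Gria2 promoter: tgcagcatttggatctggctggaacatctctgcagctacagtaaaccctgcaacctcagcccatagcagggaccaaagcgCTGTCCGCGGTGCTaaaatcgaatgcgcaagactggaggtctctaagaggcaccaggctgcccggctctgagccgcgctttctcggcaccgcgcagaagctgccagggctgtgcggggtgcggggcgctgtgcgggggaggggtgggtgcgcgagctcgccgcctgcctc
The match is a description of these letters, and binding was not measured.

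Gria3 had 38.2, 18.0 and 38.0 CPM in Cx43FL and 157, 42.2 and 81.8 CPM in Cx43KO. Its libraries did not overlap, although Cx43KO replicate 2 lay only a little above the highest Cx43FL library. The log2 fold change was 1.57 (SE 0.50, adjusted p = 0.538), and 0.98 without Cx43KO replicate 1. Gria1 had 82.7, 144 and 76.4 CPM in Cx43FL and 303, 132 and 168 CPM in Cx43KO, with replicate 2 inside the Cx43FL range. Its log2 fold change of 0.99 (SE 0.39, adjusted p = 0.556) was 0.56 without replicate 1. Gria4 had 8.73 to 11.3 CPM in Cx43FL and 50.2, 7.11 and 13.4 CPM in Cx43KO, far above Cx43FL in replicate 1, just above in replicate 3 and below in replicate 2. The mean shares of Gria1, Gria2 and Gria3 in the summed AMPA level per length differed between genotypes by less than the SD of Cx43FL. Gria2 made up 36.2% ± 4.10 in Cx43FL and 35.6% ± 1.57 in Cx43KO (SD over the libraries, n = 3), or 58.7% ± 4.47 and 58.2% ± 1.68 with the shorter transcript length, and Gria1 43.9% ± 10.7 and 41.2% ± 4.42. The share of Gria4 was 4.45% ± 0.125 in Cx43FL and 4.09% ± 1.97 in Cx43KO, a difference above the SD of Cx43FL and below that of Cx43KO. In Cx43KO replicate 1, where all 4 AMPA genes were above every Cx43FL library, the share of Gria2 was 36.7%.

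Kainate receptors comprise Grik1 to Grik3 and the high-affinity subunits Grik4 and Grik5, which need the former to form channels. Grik2 had 15.0, 6.63 and 18.9 CPM in Cx43FL and 111, 16.8 and 25.2 CPM in Cx43KO. Replicate 2 lay inside the Cx43FL range and replicate 1 far above it. On the log2 scale the difference was 1.91 (SE 0.71, adjusted p = 0.544), and 0.63 without Cx43KO replicate 1. Grik5 had 25.6, 14.7 and 46.8 CPM in Cx43FL and 101, 66.3 and 44.9 CPM in Cx43KO, with replicate 3 inside the Cx43FL range. Its log2 fold change of 1.28 (SE 0.48, adjusted p = 0.553) was 0.94 without replicate 1. Grik3 and Grik4 had no unadjusted p below 0.05. The values of Grik3 were scattered in Cx43KO, with 60.7, 10.4 and 0.895 CPM against 4.30 to 7.38 CPM in Cx43FL, and those of Grik4 ranged from 3.78 to 21.2 CPM over both genotypes.

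NMDA receptors need Grin1, the obligatory subunit that binds the co-agonist glycine, together with Grin2 subunits that bind glutamate or with Grin3 subunits. Grin1 had 17.1, 8.82 and 18.3 CPM in Cx43FL and 103, 24.1 and 60.0 CPM in Cx43KO. All Cx43KO libraries lay above all Cx43FL libraries. Cx43KO over Cx43FL, the log2 difference was 2.08 (SE 0.55, adjusted p = 0.490 in edgeR's test), the largest of the tested members, and 1.51 without Cx43KO replicate 1. The adjusted p with DESeq2 and its prior was 0.0301. Of the exonic bases of the Grin1 transcript, 30.6% are also exonic in the antisense gene Grin1os, and since the strand setting of the counting is not given in the sources used here, reads of both cannot be told apart there.

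Grin2b, the subunit of young and extrasynaptic receptors, had 137, 99.8 and 147 CPM in Cx43FL and 895, 200.5 and 131 CPM in Cx43KO. Replicate 1 alone stood far above, and replicate 3 was inside the Cx43FL range. Its log2 fold change of 1.68 (SE 0.60, adjusted p = 0.540) was 0.37 without replicate 1. Grin3a, whose inclusion lowers calcium permeability, had 14.4, 12.7 and 22.2 CPM in Cx43FL and 107, 17.7 and 30.8 CPM in Cx43KO. Replicate 2 was again within the Cx43FL range. The log2 fold change was 1.66 (SE 0.63, adjusted p = 0.554), and 0.56 without replicate 1.

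Grin2c, the NMDA subunit best known from astrocytes and cerebellar granule cells, was not higher in Cx43KO replicate 1. It had 22.0, 60.2 and 28.0 CPM in Cx43FL and 16.3, 19.9 and 55.7 CPM in Cx43KO, and it was below every Cx43FL library in replicates 1 and 2. On the log2 scale the difference was -0.26 (SE 0.57, adjusted p = 0.908), and 0.032 without replicate 1. Of the summed Grin2 level per length, Grin2c made up 39.6%, 71.9% and 42.8% in Cx43FL, and 6.75%, 29.2% and 63.0% in Cx43KO. Grin2b made up 50.1%, 24.3% and 45.7% in Cx43FL and 75.2%, 60.0% and 30.04% in Cx43KO. The composition thus varied widely between libraries of 1 genotype, and the ranges overlapped for both subunits. These shares depend on the transcript lengths used, 24060 bases for Grin2b and 4895 for Grin2c. In CPM, without division by length, Grin2b was above Grin2c in every library. Grin2a had 3.32 to 6.97 CPM in Cx43FL and 43.6, 6.31 and 4.54 CPM in Cx43KO. Grin2d was near the lower limit, with 12, 0 and 13 reads counted in Cx43FL and 20, 34 and 63 in Cx43KO. Its CPM did not overlap between genotypes, from 0 to 0.847 against 1.24 to 1.95, and the log2 fold change of 1.47 was close to its SE of 1.43 (adjusted p = 0.767), and it was 1.59 without replicate 1. Grin3b ranged from 0.683 to 2.39 CPM over both genotypes, and 31.9% of its exonic bases are shared with Tmem259.

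The delta subunit Grid1 belongs to a class that binds cerebellins and organizes synapses. It had 14.2, 12.1 and 14.9 CPM in Cx43FL and 8.38, 8.80 and 11.5 CPM in Cx43KO. Every Cx43KO library was below every Cx43FL library, replicate 3 narrowly. The log2 fold change of -0.52 was smaller than its SE of 0.56 (adjusted p = 0.788), and it was -0.44 without Cx43KO replicate 1.

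Among metabotropic glutamate receptors, Grm3 stood out by its level and its small difference. It had 134, 110.4 and 149 CPM in Cx43FL and 84.6, 119 and 132 CPM in Cx43KO. Only Cx43KO replicate 1 was below the Cx43FL range. Cx43KO over Cx43FL, the log2 difference was -0.23 (SE 0.30, adjusted p = 0.827), and -0.072 without that library. Grm5, the group I receptor that signals through phospholipase C, had 30.8, 87.5 and 28.7 CPM in Cx43FL and 185, 26.5 and 37.2 CPM in Cx43KO. The Cx43FL libraries themselves differed, and Cx43KO replicate 1 alone was above them. Per 100 of Grm3, the level per length of Grm5 was 8.69, 30.02 and 7.30 in Cx43FL, and 83.0, 8.47 and 10.7 in Cx43KO. Grm2, Grm7 and Grm8 had at most 19.7 CPM in any library, and their log2 fold changes were 0.52 to 1.18, with SE of 0.90 to 1.93. Without Cx43KO replicate 1 they were -0.038 for Grm2, -0.00083 for Grm7 and 1.599 for Grm8.

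GABA-A receptors are pentamers, mostly of alpha and beta subunits with 1 gamma or delta subunit, and many of their genes lie in clusters. In the annotation of GRCm38, Gabrg1, Gabra2, Gabra4 and Gabrb1 lie on chromosome 5 within 1398.0 kb, and Gabre, Gabra3 and Gabrq on chromosome X within 586.6 kb. Of 16 GABA-A genes without the rho subunits, 12 were tested and 11 had a log2 fold change above 0, with a median of 0.64 that was -0.14 without Cx43KO replicate 1. Levels per length differed within the cluster on chromosome 5, where Gabrg1 had 14.1 CPM per kb in Cx43FL and Gabrb1 1.97. The transcripts used have 4771 and 13737 bases, and without division by length the Cx43FL means were closer, at 67.3 and 27.0 CPM.

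Of the beta subunits, Gabrb2 had 3.71 to 22.4 CPM in Cx43FL and 87.5, 18.1 and 12.6 CPM in Cx43KO. Gabrb1 had 29.8, 23.8 and 27.4 CPM in Cx43FL and 44.4, 34.9 and 15.6 CPM in Cx43KO, above every Cx43FL library in replicates 1 and 2 and below in replicate 3.

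The alpha subunits Gabra2 to Gabra5 had their highest level in Cx43KO replicate 1. Gabra5, which gives extrasynaptic receptors of pyramidal cells, had 47.6, 99.0 and 52.4 CPM in Cx43FL and 279, 68.0 and 49.1 CPM in Cx43KO. Gabra2 had 37.4, 32.1 and 13.0 CPM in Cx43FL and 85.6, 21.1 and 22.7 CPM in Cx43KO. For these 2 genes replicates 2 and 3 lay inside the Cx43FL range. The log2 fold changes of 0.99 and 0.65 for Gabra5 and Gabra2 (SE 0.60 and 0.61) were -0.19 and -0.33 without replicate 1. Gabra4, which joins Gabrd in tonic inhibition, had 58.2, 47.0 and 54.4 CPM in Cx43FL and 88.3, 40.4 and 40.04 CPM in Cx43KO. It was above Cx43FL in replicate 1 and below every Cx43FL library in replicates 2 and 3, and the log2 difference was 0.079 (SE 0.39, adjusted p = 0.968), and -0.41 without replicate 1. Gabra3 ranged from 0.216 to 48.4 CPM in Cx43KO alone, against 3.98 to 14.8 CPM in Cx43FL.

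Among gamma subunits, Gabrg1 had 78.6, 54.7 and 68.6 CPM in Cx43FL and 35.8, 40.4 and 81.3 CPM in Cx43KO. Replicates 1 and 2 were below the Cx43FL range and replicate 3 above it, and the log2 difference was -0.36 (SE 0.39, adjusted p = 0.794). It was -0.15 without Cx43KO replicate 1, -0.20 without replicate 2 and -0.82 without replicate 3. Gabrg3 had 4.30 to 11.1 CPM in the Cx43FL and 7.53 to 19.4 CPM in the Cx43KO libraries. Gabrd had 1.91 to 3.05 CPM in Cx43FL and 0.497, 8.24 and 1.02 CPM in Cx43KO, the only tested member with a Cx43KO replicate 2 above and both other Cx43KO libraries below every Cx43FL library.

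The 2 genes of the GABA-B receptor had fold changes of opposite sign. Gabbr1, which binds GABA, had 522, 538 and 518 CPM in Cx43FL and 378, 387 and 464 CPM in Cx43KO. Every Cx43KO library lay below the narrow Cx43FL range. Its log2 fold change was -0.36 (SE 0.25, adjusted p = 0.677 in edgeR's test), and -0.31 without Cx43KO replicate 1. Gabbr2, which brings the pair to the membrane and couples to G proteins, had 40.8, 30.5 and 53.3 CPM in Cx43FL and 193, 75.6 and 126 CPM in Cx43KO. All Cx43KO libraries lay above all Cx43FL libraries. On the log2 scale the difference was 1.66 (SE 0.40, adjusted p = 0.490), the adjusted p with DESeq2 and its prior was 0.0249, and the log2 fold change without replicate 1 was 1.27. The study lists Gabbr2 among the genes it found raised in these same libraries, which is no independent evidence of its direction. For each gene the exact 2-sided permutation test gave p = 0.1, the smallest that 3 libraries against 3 allow.

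Per 100 of Gabbr1, the level per length of Gabbr2 was 7.13, 5.18 and 9.41 in Cx43FL and 46.6, 17.8 and 24.7 in Cx43KO. The libraries did not overlap. The ratio was formed after the values of both genes had been seen and is given with no test. The summed neuron markers did not overlap either, with 2926 to 3609 CPM in Cx43FL and 8763, 3835 and 5313 CPM in Cx43KO. The summed astrocyte markers overlapped. What part the mix of cell types had in the ratio was not tested. The summed level per length of the pair was 106.5 to 107.9 CPM per kb in Cx43FL and 105.5, 86.9 and 110.2 CPM per kb in Cx43KO. The bases before the start of both genes are shown because their fold changes have opposite signs (GRCm38.p6, RefSeq, strand of the gene), at chr17:37045716-37045965 on the plus strand for Gabbr1 and at chr4:46991874-46991964 on the minus strand for Gabbr2. For Gabbr2 only the 91 bases before the start of the transcript counted here are given, since that transcript starts 159 bases before the RefSeq start. The GC box GGGCGG, the motif bound by Sp1, is in capitals.
Gabbr1 promoter: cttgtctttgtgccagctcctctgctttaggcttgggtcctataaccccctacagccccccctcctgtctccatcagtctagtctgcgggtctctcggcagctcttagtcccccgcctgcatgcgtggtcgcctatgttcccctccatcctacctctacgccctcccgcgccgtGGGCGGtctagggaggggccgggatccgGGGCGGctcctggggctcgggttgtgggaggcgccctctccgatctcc
Gabbr2 promoter: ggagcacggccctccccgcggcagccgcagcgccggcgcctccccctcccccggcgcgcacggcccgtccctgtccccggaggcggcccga
The GC box was found on either strand in the windows of 17 of 32 members, against 35.6% of all windows, among them those of both genes. In the bases printed, Gabbr1 held it at 76 and 48 bases before the start and Gabbr2 did not. The GC content of the whole windows was 67.3% for Gabbr1 and 80.3% for Gabbr2, against a median of 60.2% over the members and 52.7% over all windows.

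**Figure D4:**
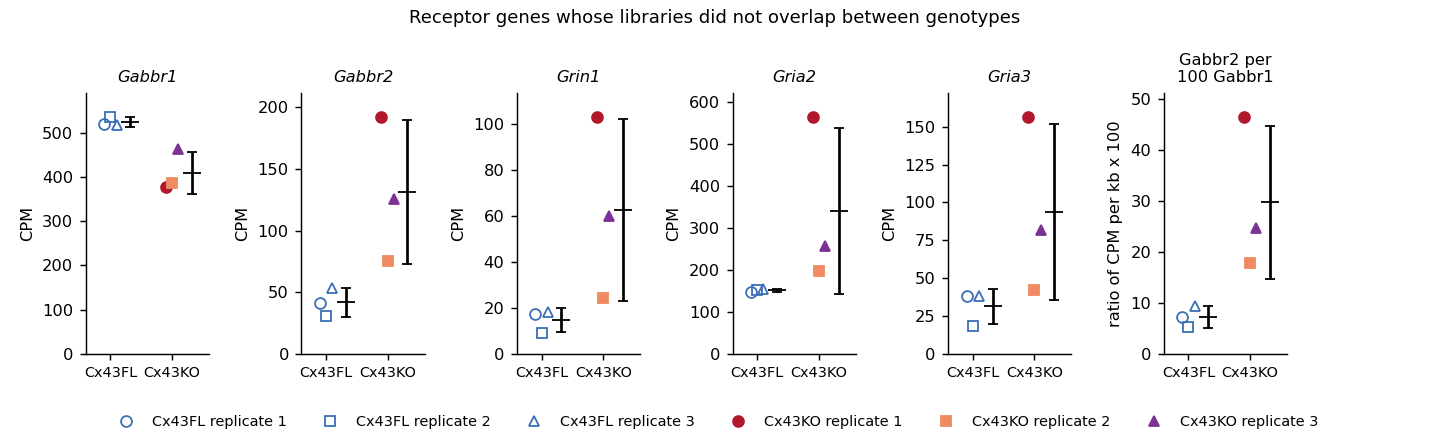
CPM of Gabbr1, Gabbr2, Grin1, Gria2 and Gria3 and the ratio of Gabbr2 to Gabbr1 (per length, per 100) in each library, with the mean and SD of each genotype (n = 3) to the right of its points. Cx43KO lies below Cx43FL for Gabbr1, from 378 to 464 against 518 to 538 CPM, and above it in the other panels without overlap.

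Every Cx43KO library was above every Cx43FL library for 5 of 37 members (8.08% of all tested genes), namely Gabbr2, Gria2, Gria3, Grin1 and Grin2d, and below for 2 (7.45% of all), namely Gabbr1 and Grid1. Leaving out Cx43KO replicate 1 cannot undo such a separation, so the 5 and the 2 genes stayed separated by construction. Without that library Gabra4 was lower too, and of all genes 13.8% were above and 12.3% below. The neuron markers were separated in the same way for 6 of 22 genes above and 0 below, among them Syp, with 70.0 to 90.4 CPM in Cx43FL and 369, 149 and 254 CPM in Cx43KO. Members were therefore also set against the summed neuron markers of their library, an addition made after the data had been seen. On that scale Gabbr2 and Grin1 were above every Cx43FL library in every Cx43KO library (2 of 37, against 1.4% of all tested genes). The sum weighs markers by their level. Snap25 alone had 1175 to 1675 CPM in Cx43FL and 2761, 1342 and 2791 CPM in Cx43KO. With all 6 libraries, Syp had the largest log2 fold change of these markers (1.66, and 1.30 without Cx43KO replicate 1). Gabbr2 had 1.66 and 1.27. Ratios to single markers were not tested. Per 1000 CPM of neuron markers, Gabbr2 had 13.9, 8.90 and 14.8 in Cx43FL and 22.0, 19.7 and 23.6 in Cx43KO. Grin1 had 5.85, 2.57 and 5.07 in Cx43FL and 11.8, 6.28 and 11.3 in Cx43KO. Gria2, Gria3 and Grin2d overlapped on that scale, and 6 of 37 members were lower in every Cx43KO library (against 25.6% of all tested genes), among them Gabbr1, Gabra4, Gabrg1, Grid1 and Grm3. Against the summed astrocyte markers, 6 of 37 members were above in every Cx43KO library (16.2%, against 7.62% of all tested genes), Grik2 in addition to the 5 named first, and 0 were below (against 3.53%).

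**Figure D5:**
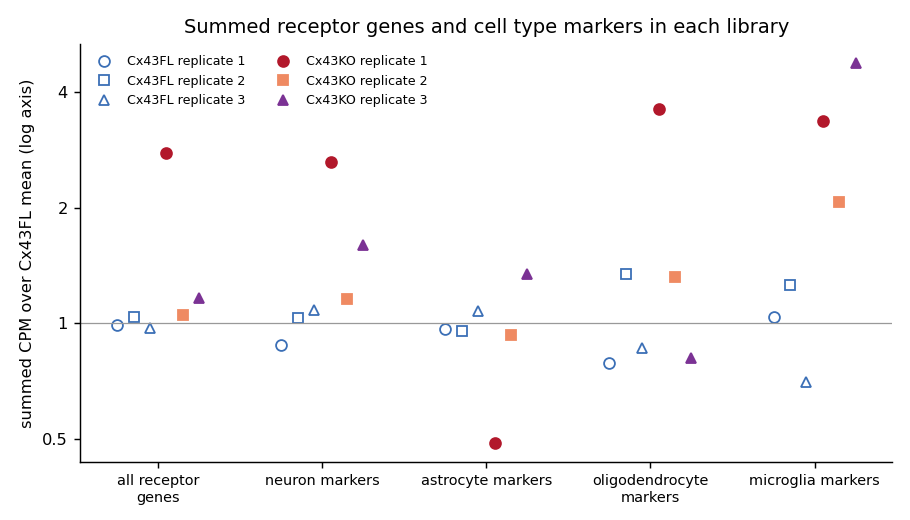
Summed CPM of the 47 receptor genes and of the markers of 4 cell types in each library, as a fold of the Cx43FL mean on a log axis. Cx43KO replicate 1 is high for the receptor genes (5053 CPM) and the neuron markers (8763 CPM) and low for the astrocyte markers (15260 CPM).

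Genes that act with the receptors were examined as lists. Of 18 auxiliary subunits of glutamate and GABA-B receptors, 5 were higher in Cx43KO at an unadjusted p below 0.05 and 0 were lower. Of the 18, 0 passed the adjusted threshold. Of all tested genes, 5.66% were higher and 2.67% lower at that p, here with no minimum count. They were Cacng2 and Cacng8, both TARP subunits of AMPA receptors, Shisa6 and Shisa7, and the GABA-B auxiliary subunit Kctd16. Cacng8 had 0.527, 0.663 and 1.37 CPM in Cx43FL and 5.59, 4.62 and 4.26 CPM in Cx43KO, the only one of these 5 whose libraries did not overlap (log2 fold change 2.49, SE 1.04, and 2.37 without Cx43KO replicate 1). Without that library the log2 fold changes of Cacng2, Shisa6 and Shisa7 fell from 1.54, 1.52 and 1.76 to 0.34, 0.36 and 0.36, with unadjusted p-values of 0.543, 0.350 and 0.513 in edgeR's test. Cacng5 was also separated, at 0.847 to 2.72 CPM in the Cx43FL and 2.86 to 13.3 CPM in the Cx43KO libraries. In all, 2 of the 18 genes were separated upward and 0 downward, against 8.08% and 7.45% of all tested genes. Kctd16 had 30.2 CPM in Cx43KO replicate 2 and 0.185 to 4.10 CPM elsewhere. The median log2 fold change of the list was 0.54, and 0.042 without Cx43KO replicate 1.

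Of the 21 tested genes of the postsynaptic scaffold, 1 was higher at an unadjusted p below 0.05 and 0 were lower, close to the 5.66% and 2.67% of all tested genes. This was Dlg2 (PSD-93), which holds NMDA receptors, with 69.4, 48.4 and 75.1 CPM in Cx43FL and 329, 119.6 and 69.4 CPM in Cx43KO, and its log2 fold change of 1.42 was 0.55 without Cx43KO replicate 1. Dlg3, Dlgap4 and Pick1 were separated without such a p, with every Cx43KO library above. These were 3 of the 21, against 8.08% of all tested genes, and 0 were separated downward, against 7.45%. Pick1, which binds Gria2, had 6.51 to 9.75 CPM in the Cx43FL and 15.9 to 19.6 CPM in the Cx43KO libraries (log2 fold change 1.12, SE 0.54, unadjusted p = 0.0626 in edgeR's test, and 1.05 without Cx43KO replicate 1). The median of the scaffold was 0.58, and -0.12 without Cx43KO replicate 1.

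Of the 18 tested genes for synthesis, loading, uptake and breakdown of glutamate and GABA, 3 were higher at an unadjusted p below 0.05 and 0 were lower, against 5.66% and 2.67% of all tested genes. The median was 0.65, and 0.40 without Cx43KO replicate 1. Gad2, which makes GABA in interneurons, had 61.9, 61.8 and 82.2 CPM in Cx43FL and 313, 143 and 120.1 CPM in Cx43KO, and Slc38a1, a glutamine transporter, had 55.7 to 58.0 CPM in the Cx43FL and 107 to 130.2 CPM in the Cx43KO libraries. Both were separated (2 of 18 genes above, against 8.08% of all tested genes). Their log2 fold changes were 1.48 and 1.01, and 0.93 and 0.91 without Cx43KO replicate 1. Slc17a7, the vesicular glutamate transporter of pyramidal and granule cells, had 41.2 to 67.3 CPM in Cx43FL and 367, 53.1 and 58.3 CPM in Cx43KO, high in replicate 1 alone, and its log2 fold change of 1.52 was -0.0067 without that library. Glul, the glutamine synthetase of astrocytes, had 8959, 8935 and 9216 CPM in Cx43FL and 2906, 6182 and 7418 CPM in Cx43KO, and Glud1, which breaks down glutamate, 1328 to 1472 and 682 to 1284 CPM. Both were below every Cx43FL library in every Cx43KO library (2 of 18 genes, against 7.45% of all tested genes). Their unadjusted p-values were 0.0749 and 0.135 in edgeR's test.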

How the data were processed

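The data are 6 libraries of hippocampal astrocyte polysomal mRNA. The authors amplified the mRNA (Ovation RNA-Seq), filtered reads with Eoulsan, aligned the rest to mm10 (STAR), dropped multi-mapped reads and deposited raw counts per Ensembl transcript (HTSeq 0.5.3 in the submitters' processing notes). Groups and replicate numbers came from the sample titles. GENCODE vM21 (GRCm38) gave a gene for 73157 transcripts and none for 2309 (1.60% to 1.78% of counts). A read was counted on every transcript it overlaps: the 8 coding transcripts of Grin1 each had 260 counts in Cx43FL replicate 1, and over 9306 genes the second transcript held a median of 93.1% of the first. Each gene was therefore taken as the transcript with its highest total. That of Gabra2 and of Gria3 is annotated as a target of nonsense-mediated decay. The tests had been laid down for counts per gene.

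The genotype comparison used edgeR 4.0.16 and R 4.3.3 (TMM, filterByExpr, quasi-likelihood F test on all 13545 genes, genotype alone in the model, Benjamini-Hochberg adjustment over all tested genes). A standard error is the log2 fold change over the square root of F. Calls needed an adjusted p below 0.05 and, in the higher group, a mean above 50 normalized counts. Single genes were compared by an exact permutation test on log2(CPM + 0.5). DESeq2 1.42.0, other scalings and filters, added-up transcripts, the replicate number as a block and the omission of each library were alternatives. The edgeR test was tried on simulated data with planted changes larger than that of any tested member. This does not show its power at the changes seen here. Libraries of the same genotype differed from each other by more than sampling noise (chi-square per degree of freedom of at least 32.5). The biological coefficient of variation was 0.6. Promoter windows came from RefSeq. Members, lists and tests were chosen with earlier results of these data known. The members given with values in every library are the 12 with the largest Cx43FL level per length, those with an unadjusted p below 0.05, those whose libraries do not overlap, and Gabbr2. Some members that met this rule or were tested are not reported here by name, although counts and medians over all members include them. Values of other members, among them Grm5 and Gabrb1 in every library, were added after they had been seen, to describe each receptor class. Genes of other lists are named where at an unadjusted p below 0.05 or as markers, and Cacng5, Dlg3, Dlgap4, Pick1 and Glud1 were added after their values had been seen, for their separated libraries. The marker lists of neurons, astrocytes, oligodendrocytes, their precursors, microglia and endothelial cells had median log2 fold changes of 0.77, -0.14, 0.85, 0.15, 1.60 and 1.08, with 7, 0, 1, 1, 6 and 0 genes higher and 0, 1, 0, 0, 0 and 0 lower at an unadjusted p below 0.05, of 22, 15, 10, 8, 12 and 7 tested (5.66% and 2.67% of all tested genes).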

Additional observations from a re-analysis of the deposited data

How the results depend on the processing

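The count of receptor genes called was 0 in edgeR under every scaling, filter, transcript choice, block and left-out library tried. It was 2 with DESeq2 with its prior and 2 without the prior (Gabbr2 and Grin1 in both), and 10 with an unadjusted p below 0.05. The median log2 fold change of the members ranged from -0.00079 to 1.27 with 1 library left out, the lowest without Cx43KO replicate 1. It was 0.50 with the replicate number as a block, 0.45 with DESeq2 and its prior and 0.84 with upper-quartile factors. Same-numbered libraries did not deviate together (correlations of 0.0114, -0.00402 and -0.0547), which gave no sign of a pairing but cannot exclude one. The block changed no call. The number of members above every Cx43FL library in every Cx43KO library ranged from 5 to 11 with 1 library left out (8 without Cx43FL replicate 2 or 3, 10 without Cx43KO replicate 2, 11 without Cx43KO replicate 3), and the number below from 2 to 5 (5 without Cx43KO replicate 3). Fewer libraries make separation easier by construction. Of 251 log2 fold changes of 18 named genes under 14 settings, 239 kept their sign and side of the threshold and 8, in 4 genes, changed sign. Without Cx43KO replicate 1 the values were -0.33 for Gabra2, -0.41 for Gabra4, -0.19 for Gabra5 and 0.032 for Grin2c. Gabra4 was at -0.011 with upper-quartile factors, -0.023 with the replicate block and -0.018 without Cx43FL replicate 2, and Grin2c at 0.28 without Cx43FL replicate 2. With 1 library left out, Gabra2 ranged up to 0.98, Gabra4 to 0.27 and Gabra5 to 1.39, and Grin2c down to -1.02. Why these values turned was not tested. Levels per length moved by more than 1 SD in 6 of 60 settings, 4 with transcripts added up and 2 with the shorter length, a setting added after the data had been seen. With transcripts added up, Gabbr1 went from 100.2 to 327.5 CPM per kb, Gria1 from 18.2 to 54.7, Gria2 from 14.6 to 29.1 and Grin2c from 7.50 to 14.8. The biological coefficient of variation was 0.6, with 3 libraries against 3. Counts were low for Grin2d, Grm8 and Gabrd, which limits the precision of their values.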
